A study of Rattus norvegicus with 22 samples.

Results

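The 8 genes of MHC class II antigen presentation were followed in rat liver after hepatic vagotomy and inhalation of ozone. They were taken by symbol from the table of normalised counts, where 8 of 8 were found among 14971 genes listed. All 8 were also among the 12424 genes that were tested, those whose normalised count averaged 10 or more. RT1-Da, RT1-Db1, RT1-Ba and RT1-Bb encode the alpha and beta chains of the classical class II molecules, RT1-DMa and RT1-DMb the chains of the peptide exchange factor DM, Cd74 the invariant chain, and Ciita the transactivator that switches the group on. The RNA came from liver pieces of 22 rats in 4 groups, which were vagotomy with ozone (n = 5), vagotomy with air (n = 6), sham surgery with ozone (n = 6) and sham surgery with air (n = 5). The rats were bought at 10 to 11 weeks of age. At 12 weeks the vagal branch to the liver was cut (hepatic vagotomy) or left intact (sham), and recovery took 5 to 6 days. Exposure to air or to 1 ppm of ozone lasted 4 hours a day, for 1 day or 2, and livers were taken within 2 hours of its end. The labels used here give no strain or sex and no number of exposure days for a single rat.

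Class II molecules display peptides from engulfed proteins to CD4 T cells. Their alpha and beta chains assemble in the endoplasmic reticulum around the invariant chain, which blocks the peptide groove and is cut down by lysosomal proteases until DM exchanges the last fragment for a peptide. In liver, constitutive class II is known mainly from Kupffer cells, dendritic cells, B cells and sinusoidal endothelium, and interferon gamma induces it in other cells through IRF1 and CIITA. In bulk tissue, fewer cells of a type and less RNA per cell cannot be told apart.

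Between 14098863 and 21141337 reads fell in genes per library. The 4 libraries lowest in 5.8S ribosomal RNA, under a cut of 200, had normalised counts of 38.1 to 180, against 342 to 3775 in the other 18. They were vagotomy ozone 1 (38.1), vagotomy air 1 (180) and 5 (89.4) and sham ozone 3 (72.6). On a log scale the step across the cut is about as wide as steps among the 4, so the cut divides a continuous range. Sham air held none of the 4, and the values without these 4 libraries are given where they differ, a choice made with the data known. Numbers name libraries within their group, and the labels do not say that they pair libraries across groups. Nothing in the labels used here says how rats were spread over surgery or exposure days. The RT1 genes belong to a family with similar copies and the counting of shared reads is not given in the sources used here, so the RT1 values are uncertain to that extent. Transcript lengths were not at hand, and levels are therefore compared between libraries and not between genes.

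The members that encode class II chains share letters in their promoters, and these are shown because factors described further on are known to bind such letters. Windows of 300 bases, 250 before and 50 after the annotated start, come from RefSeq on build GRCr8, which differs from the build rn6 named in the submitters' processing notes. Of the 8 members 6 had a window. In all, 5 of these windows, all from RT1 genes on chromosome 20, hold TGATTGG, the letters of the Y box bound by NF-Y, and each stretch below runs 5′ to 3′ along the gene's own strand from 60 bases before the box to 10 bases after it. Capitals mark TGATTGG and, where it lies 15 to 30 bases upstream, GCAAC, letters from the core of the X box bound by the RFX complex.
RT1-Da: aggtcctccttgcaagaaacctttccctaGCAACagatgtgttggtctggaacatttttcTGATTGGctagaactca
RT1-Db1: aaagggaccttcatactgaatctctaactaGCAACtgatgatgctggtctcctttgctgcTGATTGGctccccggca
RT1-Ba: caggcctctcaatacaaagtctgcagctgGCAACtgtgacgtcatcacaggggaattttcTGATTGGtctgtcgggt
RT1-Bb: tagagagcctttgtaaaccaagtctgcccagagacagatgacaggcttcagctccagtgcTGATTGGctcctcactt
RT1-DMa: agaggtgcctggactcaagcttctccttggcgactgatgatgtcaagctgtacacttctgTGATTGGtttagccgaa

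These stretches are chr20:4515304-4515380 (plus strand) for RT1-Da, chr20:4560228-4560304 (minus strand) for RT1-Db1, chr20:4576952-4577028 (plus strand) for RT1-Ba, chr20:4604165-4604241 (minus strand) for RT1-Bb and chr20:4712385-4712461 (minus strand) for RT1-DMa, all on GRCr8. The box begins 51 bases before the start in RT1-Da, 82 in RT1-Db1, 45 in RT1-Ba, 63 in RT1-Bb and 66 in RT1-DMa. RT1-Da, RT1-Db1 and RT1-Ba carry GCAAC with 26, 25 and 26 bases between it and the box. Searched on either strand, TGATTGG occurs in 7.06% of all 33469 windows, GCAAC in 35.1%, and GCAAC at that spacing before TGATTGG in 0.134%, or 45 windows. The letters of the motifs were chosen after the sequences had been seen. The Cd74 window, on chromosome 18, has no TGATTGG. RT1-DMb and Ciita are not shown.

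Ozone did not pass the test for any of the 4 classical chain genes, in sham or in vagotomised rats, and in sham rats each of them had a negative change. A change is a log2 fold change of normalised counts plus 1, ozone over air unless stated otherwise, given as estimate ± standard error (SE). Genes count as called below an adjusted p of 0.05 in the limma fit over all genes. In sham rats limma called 0 of the 8 members, as did edgeR and DESeq2, where 28.4% of all genes tested were called. An unadjusted p under 0.05 was found for 4 of the 8 members and for 39.0% of all genes tested. Of the genes called, 51.3% were higher, against 33.9% with values rescaled to equal totals and 35.5% with equal upper quartiles. Of the 8 changes 7 were negative, RT1-DMa positive instead in 2 alternatives, and the median of the 8 was -0.30, against a median of 0.01 over all genes tested.

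RT1-Bb, the beta chain of the B molecule, had normalised counts of 258 to 517 with a median of 319 in sham ozone livers, against 376, 462, 376, 431 and 476 in sham air livers. In sham ozone 5 of the 6 values lay below every air value, and the remaining one, sham ozone 3, lay above every air value. The change was -0.35 ± 0.16 (adjusted p = 0.103). RT1-Ba, its alpha partner, had 392 to 619 with a median of 512 in sham ozone livers, against 541, 730, 557, 713 and 728 in sham air livers, a change of -0.36 ± 0.17 (adjusted p = 0.128). In sham ozone 4 of the 6 values were below every air value. RT1-Db1, the beta chain of the D molecule, ran from 234 to 512 with a median of 323 in sham ozone livers, against 361 to 413 in sham air livers, again with 5 ozone libraries below all air libraries and sham ozone 3 above them all. Its change was -0.25 ± 0.17 (adjusted p = 0.283). RT1-Da, the alpha chain of that molecule, ran from 1531 to 2146 with a median of 1870 in sham ozone livers, against 1907 to 2708 in sham air livers, with a change of -0.31 ± 0.19 (adjusted p = 0.248).

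**Figure D1:**
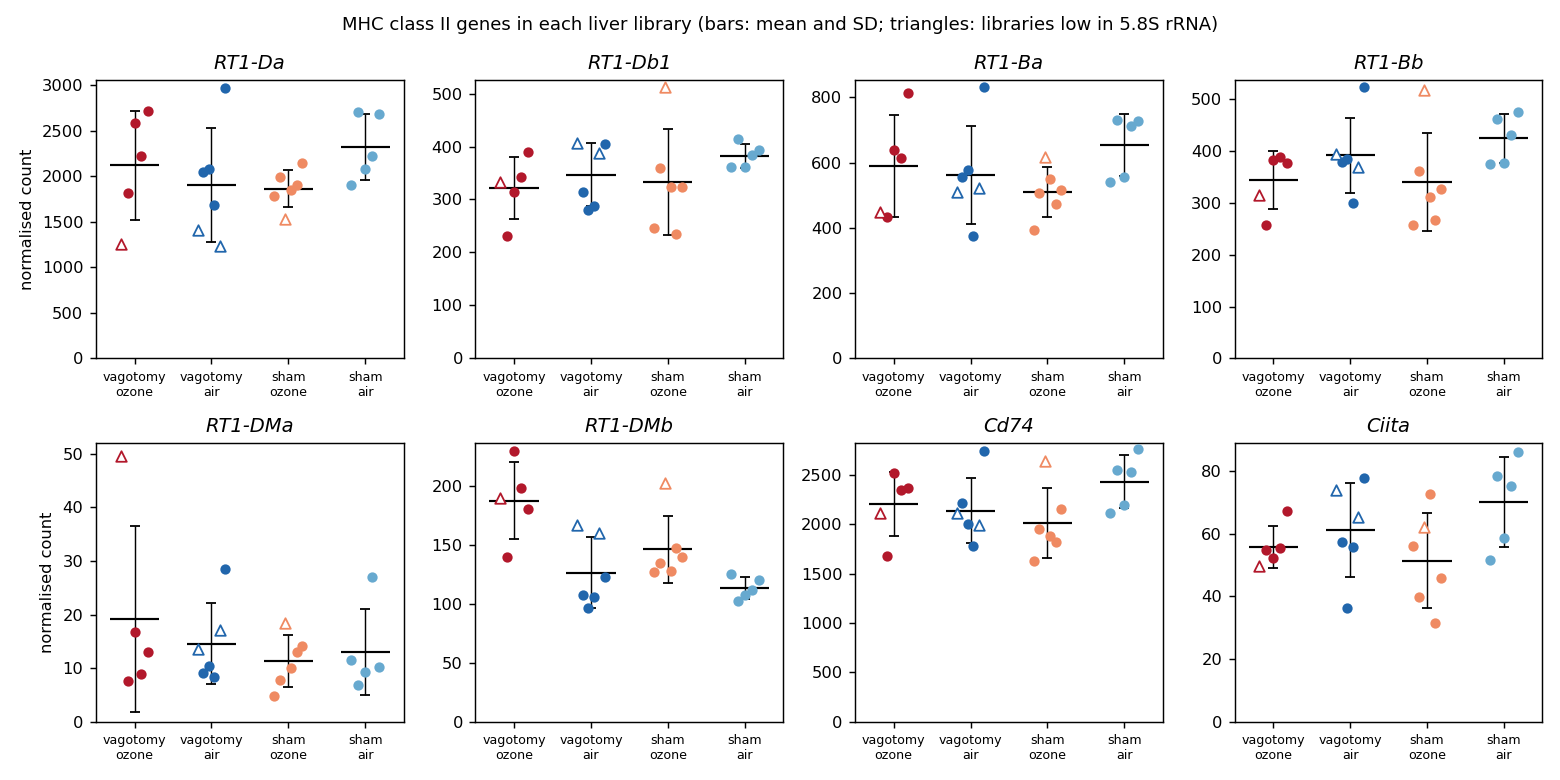
Normalised count (vertical axes, from 0) of each of the 8 genes in every library, with groups along the horizontal axes and bars for the mean and SD. Triangles are the 4 libraries low in 5.8S; RT1-DMb is higher in all 6 sham ozone libraries (127 to 202) than in the 5 sham air libraries (102 to 125).

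Sham ozone 3, a library low in 5.8S, had the highest value of its group for 6 of the 8 members. The calls in sham rats depended on it, though not on it alone. With sham ozone 3 kept, RT1-Bb and Cd74 were also called with values rescaled to equal totals, and Ciita without sham ozone 4. Without that library limma called RT1-Bb at -0.48 (adjusted p = 0.0120) and Cd74 at -0.36 (adjusted p = 0.0256), where 29.3% of all genes tested were called. Without all 4 libraries low in 5.8S it called 3 members, which were RT1-Bb at -0.48 (adjusted p = 0.0124), Cd74 at -0.36 (adjusted p = 0.0248) and RT1-Db1 at -0.38 (adjusted p = 0.0404), where 35.9% of all genes tested were called. With log2 5.8S as a covariate 0 members were called in sham rats, where 34% of all genes tested were called. Whether the low 5.8S and the high class II values of that library have a common source was not tested.

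In vagotomised rats the classical chains showed no common direction. RT1-Bb had 315, 258, 382, 388 and 377 in vagotomy ozone livers, against 300 to 524 with a median of 382 in vagotomy air livers. RT1-Ba had 448, 435, 640, 614 and 815 in vagotomy ozone livers, against 376 to 831 with a median of 540 in vagotomy air livers. The ozone and air values overlapped for each of the 4 chain genes. The changes were 0.16 ± 0.19 for RT1-Da (adjusted p = 0.612), -0.11 ± 0.17 for RT1-Db1 (adjusted p = 0.695), 0.07 ± 0.17 for RT1-Ba (adjusted p = 0.827) and -0.18 ± 0.16 for RT1-Bb (adjusted p = 0.463). The 95% intervals ran from -0.24 to 0.56 for RT1-Da and from -0.51 to 0.14 for RT1-Bb. The sham estimate of RT1-Da lies outside the first, and that of RT1-Bb lies inside the second. Those sham estimates carry errors of their own. For RT1-Da the difference between the ozone changes, vagotomised minus sham, was 0.47 ± 0.27 and did not pass (adjusted p = 0.627). Its 95% interval ran from -0.09 to 1.04.

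RT1-DMb, the beta chain of the peptide exchange factor DM, was the member that rose after ozone. In vagotomised rats it had normalised counts of 190, 139, 229, 198 and 180 in ozone livers, against 96.2 to 167 with a median of 115 in air livers. In vagotomy ozone 4 of the 5 values lay above every air value, and vagotomy ozone 2 lay within the air range. It averaged 187 ± 32.6 in vagotomy ozone livers and 126 ± 29.8 in vagotomy air livers (SD, n = 5 and 6). The rise was 0.58 ± 0.15, or 1.49-fold (adjusted p = 0.00928), and RT1-DMb was the 1 member called there, where 21.1% of all genes tested were called and 11.4% were called as higher. In sham rats RT1-DMb had 127 to 202 with a median of 137 in ozone livers, against 125, 102, 108, 112 and 120 in air livers. All 6 ozone values were above all 5 air values, as they were for 8.15% of genes tested, and the change of 0.35 ± 0.15 did not pass (adjusted p = 0.0939). Averaged over both surgeries RT1-DMb rose by 0.46 ± 0.11, or 1.38-fold (adjusted p = 0.00160), where 39.1% of all genes tested were called and 20.2% were called as higher.

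The rise of RT1-DMb in vagotomised rats was called whichever library was left out, with adjusted p from 0.00369 to 0.0391 over the 22 libraries. Without the 4 libraries low in 5.8S it was 0.77 (adjusted p = 0.000323), while the sham value was 0.25 (adjusted p = 0.104). The 2 vagotomy air libraries low in 5.8S had the 2 highest RT1-DMb values of their group, 167 and 160, against 96.2 to 123 in the other 4. The difference between the ozone changes of vagotomised and sham rats was 0.23 ± 0.22 over all libraries (adjusted p = 0.810). Its 95% interval ran from -0.22 to 0.68. Without the 4 libraries low in 5.8S the difference was 0.51, also not called. The rise was therefore not shown to differ between the surgeries.

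RT1-DMa, the alpha chain of DM, was counted with 4 to 52 reads per library, too few for a firm comparison. Its normalised counts were 49.6, 7.68, 16.8, 8.91 and 13.1 in vagotomy ozone livers, against 8.42 to 28.5 with a median of 12.0 in vagotomy air livers. They were 4.89 to 18.4 with a median of 11.6 in sham ozone livers, against 11.6, 6.94, 9.29, 27.0 and 10.3 in sham air livers. The groups overlapped throughout. The changes were 0.17 ± 0.42 in vagotomised rats (adjusted p = 0.822) and -0.13 ± 0.42 in sham rats (adjusted p = 0.845), with 95% intervals from -0.70 to 1.05 and from -1.01 to 0.74. A rise of the size of RT1-DMb's lies inside both intervals.

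Cd74, the invariant chain, had a negative change in sham rats, as the classical chains did. It had normalised counts of 1626 to 2645 with a median of 1922 in sham ozone livers, against 2114, 2552, 2198, 2531 and 2768 in sham air livers. In sham ozone 4 of the 6 values were below every air value, and sham ozone 3 was above 4 of the 5 air values. The change was -0.28 ± 0.13 (adjusted p = 0.101). In vagotomised rats Cd74 had 2114, 1682, 2522, 2345 and 2370 in ozone livers, against 1777 to 2741 with a median of 2061 in air livers. The groups overlapped and the change was 0.04 ± 0.13 (adjusted p = 0.856).

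Ciita, the transactivator, had the largest negative change of the members in sham rats. Its normalised counts were 31.6 to 72.8 with a median of 51.1 in sham ozone livers, against 51.7, 78.3, 58.5, 75.3 and 86.2 in sham air livers. In sham ozone 3 of the 6 values were below every air value, and none was above the air median. The change of -0.47 ± 0.21 did not pass (adjusted p = 0.0946), though without sham ozone 4, the ozone library with the most Ciita, it was called at -0.58 (adjusted p = 0.0406). In vagotomised rats Ciita had 49.6, 54.7, 52.4, 55.5 and 67.2 in ozone livers, against 36.2 to 77.8 with a median of 61.3 in air livers, with a change of -0.09 ± 0.21 (adjusted p = 0.802). The ozone values lay within the air range.

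**Figure D2:**
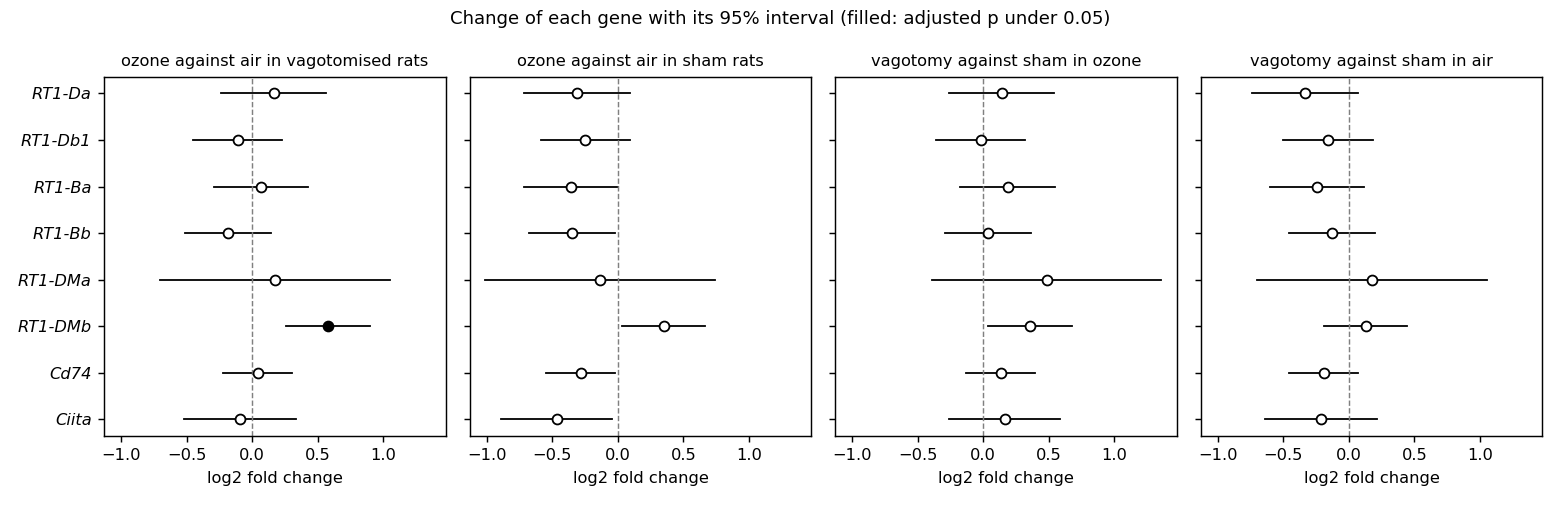
Log2 fold change (horizontal axes) of each gene with its 95% interval in 4 comparisons, with filled points for an adjusted p under 0.05. RT1-DMb in vagotomised rats (0.58) is the filled point, and in sham rats the other 7 genes lie left of 0.

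Vagotomy alone was not followed by a called change in any member. In air limma called 0 of the 8 members and 0% of all genes, with 0 members but 387 genes at an unadjusted p under 0.05, and edgeR and DESeq2 also called 0 genes. The members' median change, vagotomy over sham, was -0.17 in air, from -0.33 ± 0.19 for RT1-Da to 0.18 ± 0.42 for RT1-DMa. Without the 4 libraries low in 5.8S the change of RT1-Da in air was -0.098. In ozone limma called 0 members, as did edgeR and DESeq2, where 1.34% of all genes were called. An unadjusted p under 0.05 was found for 1 of the 8 members and for 1862 of the 12424 genes tested. That member was RT1-DMb, at 0.36 ± 0.15 (adjusted p = 0.273), with 190, 139, 229, 198 and 180 in vagotomy ozone livers, against 127 to 202 with a median of 137 in sham ozone livers. Without the 4 libraries low in 5.8S this change was 0.44 (adjusted p = 0.0646). RT1-Da, which had 1259, 1810, 2578, 2226 and 2713 in vagotomy ozone livers, against 1531 to 2146 with a median of 1870 in sham ozone livers, changed by 0.14 ± 0.19 (adjusted p = 0.803). Averaged over exposures limma called 0 members, as did edgeR and DESeq2, where 0.113% of all genes were called. An unadjusted p under 0.05 was found there for 1 of the 8 members and for 9.26% of all genes tested.

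The ozone changes of the members were more positive in vagotomised than in sham rats for all 8 genes, RT1-DMa being the exception in 1 alternative, and none of these differences passed. The difference, vagotomised minus sham, ran from 0.14 ± 0.23 for RT1-Db1 to 0.47 ± 0.27 for RT1-Da (adjusted p = 0.627), with a median of 0.32. Over all genes tested the median was -0.004, and 49.5% had a positive difference. The sham air values enter this difference, the sham ozone changes and the vagotomy changes in air, so these are not separate observations. For Cd74 it was 0.32 ± 0.18 (adjusted p = 0.606), for RT1-Ba 0.43 ± 0.25 (adjusted p = 0.621) and for Ciita 0.37 ± 0.29 (adjusted p = 0.757). Limma called 0 of the 8 members and 0% of all genes for this difference, with 0 members and 1147 genes at an unadjusted p under 0.05. EdgeR called 0 genes and DESeq2 20, none of them a member. The 8 genes are not independent, as several moved together from rat to rat.

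Within groups, RT1-Db1, RT1-Ba, RT1-Bb and Cd74 varied together from library to library. After each group's mean had been subtracted, the 6 pairs among these 4 genes had Pearson's r from 0.62 to 0.94 and Spearman's rho from 0.59 to 0.92 over the 22 libraries. The closest pair was RT1-Bb and Cd74, with r = 0.94 (permutation p = 1e-05, the smallest that 100000 permutations can give, adjusted p = 0.000280) and rho = 0.92 (permutation p = 1e-05, adjusted p = 9.33e-05). Without the 2 libraries farthest from the median, r was 0.91 for that pair. Of 28 pairs of members 8 passed by r and 12 by rho after Benjamini-Hochberg adjustment by permutation test. The 4 genes were grouped with these values known, and the adjustment was over all 28 pairs. Outside the group, RT1-Db1 with RT1-DMb had r = 0.67 (permutation test, adjusted p = 0.0175). RT1-Da with RT1-Ba also had r = 0.67 (permutation test, adjusted p = 0.0221). Ciita had r from 0.09 to 0.55 with the other 7 genes, and 0 of these 7 pairs passed by r and 2 by rho. In vagotomy air 6 the highest values of the group stood together for 6 members, and in vagotomy ozone 2 the lowest values stood together for 6 members.

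**Figure D3:**
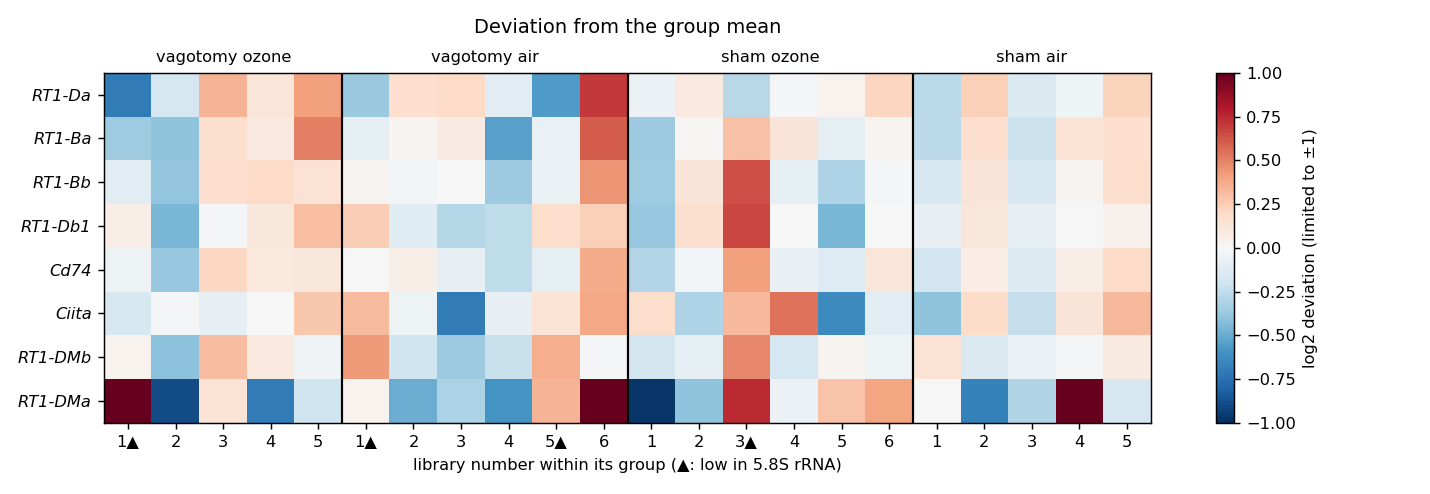
Log2 deviation of each gene (rows) from its group mean in each library (columns), limited to ±1, with triangles at the 4 libraries low in 5.8S. RT1-Ba, RT1-Bb, RT1-Db1 and Cd74 share their colours in most columns, and RT1-Da is low in all 4 marked columns.

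RT1-Da left this pattern in the 4 libraries low in 5.8S, where it was below all other libraries of its group. How many other genes tested did so was not counted. RT1-Da had 1259 in vagotomy ozone 1, against 1810 to 2713 in the other libraries of that group. In sham ozone 3 it had 1531, against 1777 to 2146. Per Cd74 count, RT1-Da was 0.579 to 0.667 in the 4 libraries, against 0.880 to 1.14 in the other 18, with no overlap. Per RT1-Db1 count, its partner chain, it was 2.99 to 3.78 in the 4, against 5.28 to 8.23 in the 18. These ratios were chosen after the values had been seen and carry no test. They compare libraries and say nothing of which gene is more abundant. With all libraries r between RT1-Da and those 4 genes ran from 0.003 to 0.67, and 1 of 4 pairs passed. Without the 4 libraries r ran from 0.61 to 0.87.

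RT1-DMb per Cd74 count was higher in ozone livers of each surgery, and it too was chosen after the values had been seen and carries no test. It was 0.0760 to 0.0910 in vagotomy ozone livers, against 0.0448 to 0.0801 in vagotomy air livers, where the highest 2 belong to the libraries low in 5.8S. Without those it was 0.0448 to 0.0595 in vagotomy air. It was 0.0644 to 0.0809 in sham ozone livers, against 0.0400 to 0.0591 in sham air livers. So the sham groups did not overlap, and the vagotomy groups did not overlap in the libraries with more 5.8S. How often the ratios of other genes to Cd74 separate the groups was not counted. Cd74 itself changed by -0.28 ± 0.13 in sham rats.

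**Figure D4:**
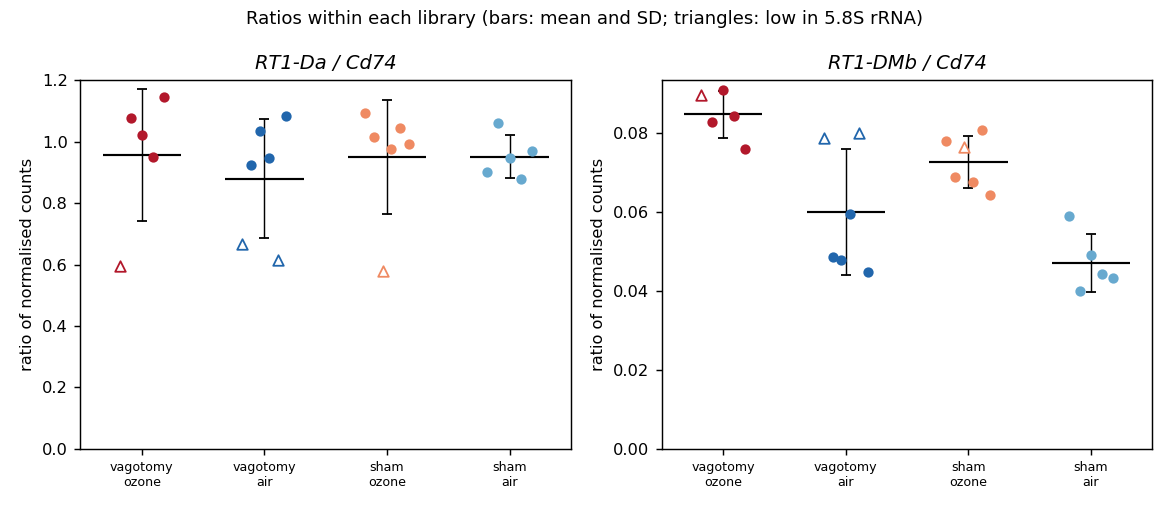
Ratio of normalised counts within each library (vertical axes, from 0) by group, with bars for the mean and SD and triangles for the libraries low in 5.8S. RT1-Da per Cd74 is 0.579 to 0.667 in the triangles and 0.880 or more in the circles, and RT1-DMb per Cd74 is 0.0644 to 0.0809 in sham ozone against 0.0400 to 0.0591 in sham air.

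The genes whose pattern over the 22 libraries was most like the members' were looked for among the 12416 other genes tested, by Pearson's r between a gene and the mean standardised value of the 8 members after group means had been subtracted. Nckap1l, a regulator of actin in blood cells, had r = 0.82, followed by the macrophage genes Cd5l at 0.82 and Marco, a scavenger receptor, at 0.82. Aif1, a macrophage actin-binding protein, had 0.81, as did C1qb, a chain of complement C1q, and Gng2, a G protein subunit. Cd5l, Marco and C1qb are also Kupffer cell markers in the lists used here. Without the 2 libraries farthest from the median, vagotomy air 6 and sham ozone 3, these r ran from 0.68 to 0.81. The values are a description, since the genes were picked as the highest of many.

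Of 16 genes tested that act on class II promoters or on Ciita, 5 fell in sham rats and 0 rose, where 13.8% of all genes tested were called as lower, and 2 fell and 0 rose in vagotomised rats, where 9.63% were. The list's median change was -0.22 in sham and -0.23 in vagotomised rats, against 0.01 and -0.01 over all genes. Nfya, a subunit of the NF-Y complex that binds the Y box, had 50.8 to 96.7 with a median of 84.5 in sham ozone livers, against 147 to 210 in sham air livers, without overlap, as for 7.21% of genes tested. It fell by 1.19 ± 0.21 on the log2 scale there (adjusted p = 0.000143), while the change in vagotomised rats was -0.28 ± 0.21 (adjusted p = 0.382). Nfyb, another subunit, changed by -0.52 ± 0.11 in sham rats (adjusted p = 0.00116) and by -0.36 ± 0.11 in vagotomised rats (adjusted p = 0.0248). The vagotomised value was not called without the 4 libraries low in 5.8S (-0.23, adjusted p = 0.0955), nor when vagotomy ozone 1 or 2 or vagotomy air 1 or 2 was left out, with adjusted p up to 0.0798. Nfyc, the remaining NF-Y subunit, changed by 0.17 ± 0.13 in sham rats (adjusted p = 0.367) and by 0.35 ± 0.13 in vagotomised rats (adjusted p = 0.0659), opposite in sign to the other subunits. Creb1, which also binds the X box region, changed by -1.05 ± 0.31 in sham rats (adjusted p = 0.0143) at a mean normalised count of 11.6. In vagotomised rats Creb1 was not called. Its change there ran from -0.97 to -0.49 over the fits that each left out a library, 1 of which called it.

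Rfx5, the subunit of the RFX complex that contacts DNA, fell in vagotomised rats by 0.81 ± 0.17 on the log2 scale (adjusted p = 0.00132). It had 55.3, 90.2, 72.3, 79.2 and 82.1 in vagotomy ozone livers, against 93.4 to 150 with a median of 142 in vagotomy air livers, without overlap, as for 5.21% of genes tested. In sham rats its change was -0.46 ± 0.17 (adjusted p = 0.0449), and it was not called in 12 of the 22 fits that each left out a library, with adjusted p up to 0.108. These were the fits without vagotomy ozone 3 or 4, vagotomy air 1, 2 or 4, sham ozone 3, 5 or 6, or sham air 2, 3, 4 or 5. The other RFX subunits did not pass, with Rfxap at 0.11 ± 0.16 and Rfxank at -0.12 ± 0.29 in sham rats. In vagotomised rats Rfxap and Rfxank had negative changes, as Rfx5 did, and neither was called. Irf8, a factor of myeloid cells, changed by -0.41 ± 0.13 in sham rats (adjusted p = 0.0194), with adjusted p up to 0.0628 when sham ozone 1, sham air 2 or sham air 5 was left out. In vagotomised rats Irf8 was not called. Its change there ran from -0.41 to -0.27 over the fits that each left out a library, 3 of which called it.

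Upstream of Ciita, 2 of 9 genes of interferon gamma signalling fell in sham rats and 0 rose, and in vagotomised rats 1 fell and 1 rose. In sham rats 13.8% of all genes tested were called as lower and 14.6% as higher, and in vagotomised rats 9.63% and 11.4%, so the vagotomised counts lie near these shares. Irf1, a transcription factor that activates Ciita, changed by -0.76 ± 0.22 in sham rats (adjusted p = 0.0120) and by -0.51 ± 0.22 in vagotomised rats (adjusted p = 0.108). Ifngr2, a receptor chain, changed by -0.67 ± 0.19 in vagotomised rats (adjusted p = 0.0145) and by -0.68 ± 0.19 in sham rats (adjusted p = 0.0103). Ifngr1, the other chain, changed by 0.13 ± 0.10 in sham rats (adjusted p = 0.369) and rose by 0.37 ± 0.10 in vagotomised rats (adjusted p = 0.0105).

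**Figure D5:**
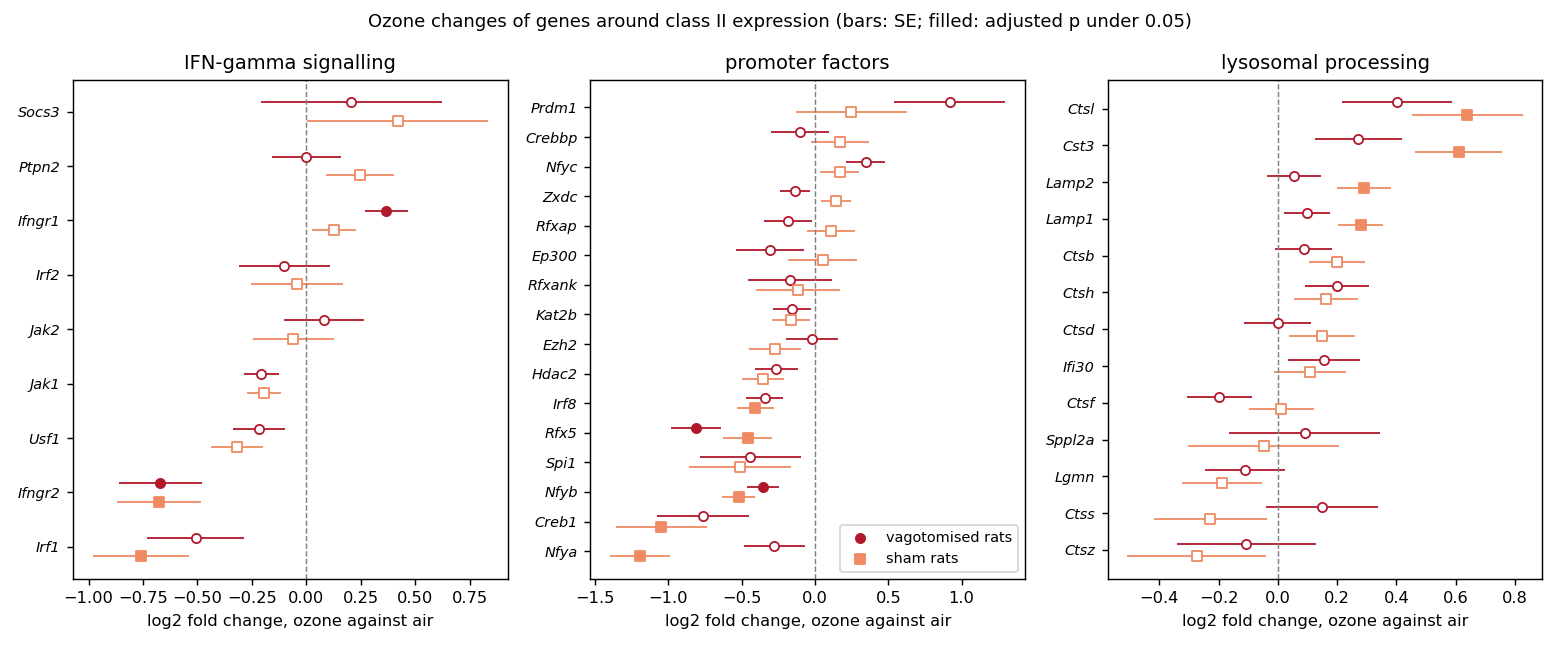
Log2 fold change, ozone against air, with its SE for genes of interferon gamma signalling, class II promoter factors and lysosomal processing, in vagotomised (circles) and sham rats (squares), filled for an adjusted p under 0.05. Ifngr2 is filled and left of 0 for both surgeries, Nfya is filled for sham rats (-1.19), and Cst3 (0.61) and Ctsl (0.64) are filled right of 0 for sham rats.

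Among genes that process the invariant chain and antigen in lysosomes, 4 of 13 rose in sham rats and 0 fell, where 14.6% of all genes tested were called as higher, and 0 of 13 were called in vagotomised rats by limma. The list's median change was 0.15 in sham and 0.09 in vagotomised rats, and 0 of 13 were called for the difference between these ozone changes. With a library left out, vagotomised changes ran from 0.27 to 0.59 for Ctsl and from 0.18 to 0.35 for Cst3. Ctsl, cathepsin L, had 16833 to 24864 with a median of 22900 in sham ozone livers, against 12061 to 16584 in sham air livers, and rose by 0.64 ± 0.19 (adjusted p = 0.0123). Cst3, cystatin C, an inhibitor of such proteases, rose by 0.61 ± 0.15 (adjusted p = 0.00315). Lamp1 and Lamp2, proteins of the lysosomal membrane, changed by 0.28 ± 0.08 (adjusted p = 0.00856) and 0.29 ± 0.09 (adjusted p = 0.0199). Neither was called when values were rescaled to equal totals or equal upper quartiles, and Lamp2 had adjusted p up to 0.0707 without sham ozone 1 or without sham air 3. Ctss, cathepsin S, the protease best known for cutting the invariant chain in antigen-presenting cells, had 395 to 718 with a median of 444 in sham ozone livers, against 527 to 623 in sham air livers. Its change was -0.23 ± 0.19 in sham rats (adjusted p = 0.397) and 0.15 ± 0.19 in vagotomised rats (adjusted p = 0.640). Without the 4 libraries low in 5.8S, 5 genes of this list rose and 1 fell in sham rats. In that fit 35.9% of all genes tested were called in sham rats, 16.7% as lower. The genes of this list called there in vagotomised rats were Ctsl at 0.36 (adjusted p = 0.0276) and Cst3 at 0.44 (adjusted p = 0.0261).

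Of 7 genes of class II turnover and of the immune synapse 3 fell in sham rats, where 13.8% of all genes tested were called as lower, and 1 in vagotomised rats, near the 9.63% of all genes there. None was called as higher. Cd274, the checkpoint ligand PD-L1, had 7.33 to 46.5 with a median of 24.7 in sham ozone livers, against 61.8 to 108 in sham air livers, and fell by 1.91 ± 0.34 on the log2 scale (adjusted p = 0.000201). In vagotomised rats it had 22.9, 30.7, 21.0, 51.5 and 62.5 in ozone livers, against 60.2 to 105 with a median of 69.6 in air livers. That change of -1.10 ± 0.34 (adjusted p = 0.0228) had adjusted p = 0.0973 without the 4 libraries low in 5.8S, and up to 0.0831 when vagotomy ozone 1, 2 or 3 or vagotomy air 1 was left out. March8, a ubiquitin ligase that removes class II from the cell surface, changed by -0.35 ± 0.09 in sham rats (adjusted p = 0.00340). Cd83, known in mouse to oppose that removal, changed by -0.82 ± 0.29 (adjusted p = 0.0371), a call lost without sham ozone 2 or 5 or sham air 1, 2, 3 or 4, with adjusted p up to 0.0977. Of 28 genes of class I antigen presentation tested, 5 fell in sham rats and 3 in vagotomised rats, near the 13.8% and 9.63% of all genes tested, and 0 rose in either. RT1-DOa and RT1-DOb, the chains of the DM inhibitor DO, had mean normalised counts of 5.69 and 3.04 and were not tested.

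Markers of cells that carry class II were looked at beside the members, and their part in the members' changes was not tested. Of 11 Kupffer cell and macrophage markers tested, 2 fell in sham rats, Cd5l at -0.52 ± 0.18 (adjusted p = 0.0349) and Cd68 at -0.64 ± 0.24 (adjusted p = 0.0491), and 0 were called in vagotomised rats by limma. That share is near the 13.8% of all genes tested that were called as lower in sham rats. The Cd5l call was lost without sham ozone 1, 2, 4 or 5 or sham air 3, 4 or 5, with adjusted p up to 0.0885. The Cd68 call was lost in 17 of the 22 fits that each left out a library, with adjusted p up to 0.110, and held without vagotomy ozone 2 or 5, vagotomy air 2 or 5, or sham ozone 3. The summed normalised count of all 12 listed markers was 6385 to 9837 in sham ozone livers, against 7464 to 9251 in sham air livers, and 6125 to 12822 in vagotomy ozone livers, against 6509 to 10811 in vagotomy air livers. Of 6 dendritic cell markers tested, Zbtb46 rose by 0.65 ± 0.17 (adjusted p = 0.00631) and Clec9a changed by -0.76 ± 0.20 (adjusted p = 0.00714) in sham rats, 1 in each direction where 14.6% of all genes tested were called as higher and 13.8% as lower. The sum over all 10 listed was 188 to 254 in sham ozone livers, against 185 to 273 in sham air livers, and 219 to 376 in vagotomy ozone livers, against 205 to 330 in vagotomy air livers. Of 7 endothelial markers tested, Fcgr2b fell in sham rats (-0.40, adjusted p = 0.0228) and Lyve1 rose in vagotomised rats (0.51, adjusted p = 0.0107), 1 of 7 each, near the 13.8% called as lower and the 11.4% called as higher over all genes there. The Fcgr2b call was lost without sham ozone 2 or 4 or sham air 4, with adjusted p up to 0.0598. Cd22, the 1 B cell marker tested, had 28.3 to 67.2 with a median of 43.9 in sham ozone livers, against 44.4 to 76.0 in sham air livers, and its changes were -0.42 ± 0.25 in sham rats (adjusted p = 0.223) and -0.29 ± 0.25 in vagotomised rats (adjusted p = 0.461). The B cell markers Cd79a and Blk had mean normalised counts of 1.87 and 4.55, with 0 reads in 7 libraries for Cd79a. Without the 4 libraries low in 5.8S, 3 Kupffer cell markers fell in sham rats, 1 dendritic marker rose and 1 fell. In that fit 35.9% of all genes tested were called in sham rats, 16.7% as lower. In vagotomised rats 0 markers of either list were called there.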

How the data were processed

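RNA from liver pieces of 22 rats was sequenced after library preparation with a kit on an automated station, per the labels' protocols. The deposited values are a signal of reads per gene divided by a size factor for each library; the submitters' processing notes name STAR, Partek, DESeq, DESeq2 and build rn6, with no roles. Strand, read counting for similar genes and the annotation are not given in the sources used here. In every library 100% of values were whole multiples of 1 step within 0.001, so reads were recovered for the count tests and depths, also in 4 libraries whose step lies close to 1.

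Genes with a mean of at least 10 were tested with limma 3.58.1 (trend, R 4.3.3) on log2 of the value plus 1, with 4 group means in 1 model and Benjamini-Hochberg adjustment over all 12424 genes; every adjusted p is limma's unless named otherwise. EdgeR 4.0.16 (quasi-likelihood) and DESeq2 1.42.0 on recovered reads, other scalings, filters and pseudocounts, and each library left out were alternatives. The fit was also run on simulated counts in which few genes changed. That run does not tell how often changes as small as most of the members' would be found. No 2 libraries of a group were duplicates: over 50 pairs, chi-square per degree of freedom was at least 9.30. The labels do not say what a replicate number shares across groups. The labels give 22 separate samples, and p-values measure the spread between them.

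The members and gene lists were chosen with earlier results of these data known, and 2 genes of these lists are not reported here. Text names every member, up to 4 genes of smallest p from each other list, defining markers and the 6 genes most like the members; other genes named (Rfxap, Rfxank, Ctss) were chosen after their values were seen. Depth limits RT1-DMa above all. 95% intervals are the fit's.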

Additional observations from a re-analysis of the deposited data

Results flagged for a closer look

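In 3 of 32 checks of a gene within a group, the highest library lay far from the rest by Dixon's criterion, which chance meets in about 1 of 20 groups. RT1-DMa was 49.6 in vagotomy ozone 1, against 16.8 in the next library of that group, and 27.0 in sham air 4, against 11.6 in the next. RT1-DMb was 202 in sham ozone 3, against 147 in the next. Vagotomy ozone 1 and sham ozone 3 are among the 4 libraries low in 5.8S, and sham air 4 is not.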

How the results depend on the processing

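Over 56 results of members, 13 other settings and 22 single libraries left out gave 1953 alternative values, of which 1937 kept their side of the threshold and 16 crossed to called, all with the direction reported. No called value was lost. Among results not called, 63 alternative values in 18 results had the other sign, 13 of them for RT1-DMa averaged over surgeries. In sham rats 2 members were called after ozone with equal totals (RT1-Bb and Cd74), 2 with equal upper quartiles and 3 without the 4 libraries low in 5.8S, all lower, where 18.8%, 19.4% and 16.7% of all genes were called as lower, against 13.8% as reported. Averaged over surgeries 2 were called under each of these, where 38.1%, 40.5% and 42.7% of all genes were called. Leaving out single libraries gave 0 to 2 members in sham rats, 1 to 2 averaged over surgeries and 1 in each fit for vagotomised rats. Genes called for vagotomy in ozone numbered 14 with only the groups compared, 366.0 by DESeq2, 269 without the low libraries and 322 with 5.8S as covariate, and 15 to 217 with a library left out, against 166. The count was 22, 60, 75 and 15 without vagotomy ozone 2, 3, 4 and 5, 83 without vagotomy air 4, and 20 and 19 without sham ozone 1 and 2. Averaged over exposures, vagotomy gave 37 with no minimum mean, 3 with a minimum of 50, 4 with the replicate block, 36 by edgeR, 114 by DESeq2, 23 without the low libraries and 10 to 34 with a library left out, against 14; the 34 came without vagotomy ozone 4. The difference between ozone changes gave 20 by DESeq2 and 0 to 1 with a library left out, against 0. The cause was not tested. Of 31 same-number pairs of libraries 10 correlated above 0.1. For 2 of 22 libraries the highest correlation in another group was with its own number. These values do not settle whether replicate numbers pair libraries. With the replicate block 0 members were called in sham and 1 in vagotomised rats, among 3306 and 2490 genes. A minimum of 50 left RT1-DMa untested, and its 4 to 52 reads limit its precision.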
